A study of Mus musculus with 8 samples.

Results

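The genes described here were 9 genes that mark leukocytes, the nucleated cells of the blood lineage. *Ptprc*, *Laptm5*, *Coro1a*, *Rac2* and *Cd52* are used by most leukocytes, and *Cd79a*, *Cd79b*, *Vpreb3* and *Ighm* by the B lymphoid lineage. They were chosen by name, and 9 of 9 had a row among the 43629 genes of the deposited count table, of which 17492 had at least 1 count. Both groups came from Axin2CreERT2;R26RTdTomato mice, in which tamoxifen activates a Cre recombinase in cells that express *Axin2* and so leaves them and their progeny red fluorescent. All animals were given tamoxifen on P23, P24 and P25 and were killed at P30. The resting zone group was tdTomato-positive chondrocytes cut by laser from frozen sections of 8 µm, and the proliferative zone group was unlabelled, flattened chondrocytes at least 50 µm away from the secondary ossification centre. The labels name tibiae as the source, and the methods name the distal femur as well as the proximal tibia. Mice 1 and 2 were labelled male and mice 6 and 13 female, and each gave 1 library per zone, so that n = 4 per zone. Cells were selected by position, fluorescence and shape on sections, and no step that removes blood cells is described. RNA went through 2 rounds of amplification by in vitro transcription before sequencing.

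Leukocytes arise from hematopoietic stem cells in the bone marrow. CD45, the product of *Ptprc*, is a tyrosine phosphatase on the surface of nearly all nucleated blood cells and sets the threshold of antigen receptor signaling. In B lymphocytes, a membrane immunoglobulin whose heavy chain is first of the IgM class, encoded by *Ighm*, binds the antigen, and the CD79A and CD79B chains carry the signal into the cell. Before a light chain is made, surrogate light chain proteins take its place in the receptor of the B cell precursor. B lymphocytes are made in the marrow of the long bones, whereas growth plate cartilage normally holds chondrocytes and no vessels.

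The resting zone libraries held 192882 to 462044 counts on genes and the proliferative zone libraries held 249284 to 631474. Levels are given as raw counts or as CPM, counts per 1000000 scaled by edgeR's TMM factors. At 0 counts a gene may by chance have had up to 3, a level of 5.97 to 14.7 CPM in the resting and 4.81 to 12.4 CPM in the proliferative zone libraries. These limits and the intervals below cover counting error only, because amplified reads are not independent molecules. As a check of the labelled cell type, 10 of 10 chondrocyte genes had counts in 8 of 8 libraries, and 8 of them were called lower in the resting zone. *Col2a1*, the main collagen of cartilage, had 1271 to 4215 counts in the resting and 4195 to 12082 in the proliferative zone libraries. The check asks only whether counts are present and says nothing on RNA of other cells. In the resting zone of mice 1, 2, 6 and 13, the 10 chondrocyte genes summed to 7518, 7217, 18833 and 10036 CPM. A list of 8 genes of osteoblasts and osteocytes summed to 26826, 15411, 6179 and 15223 CPM there.

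The strand on which reads were counted is not given in the sources used here, and some pairs of genes on opposite strands bear on it. *Tsix*, the antisense partner of *Xist*, had 8821 counts in the resting and 9877 in the proliferative zone, almost all in mice 6 and 13, against 792 and 576 counts of *Xist*, the RNA that silences an X chromosome in female cells. Beside the leukocyte gene *Fermt3*, with 60 counts in the resting and 79 in the proliferative zone, *Trpt1* on the other strand had 806 and 56. *Apex2*, which overlaps the erythroid gene *Alas2*, had 4502 and 503 counts, while *Alas2* itself had 420 and 42. These 3 pairs were picked after their values were seen. Over all 29 pairs of a listed gene and a counted gene on the other strand that overlap in exons, the partner held more resting zone counts in 8, fewer in 19 and as many in 2. Whether the counts of the 9 genes come from reads of their own strand was not tested, and every level and fold change below rests on the counts as deposited.

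The zones of an animal were compared by the quasi-likelihood test of edgeR, with the mouse as a replicate block. A gene was called when its Benjamini-Hochberg adjusted p over all genes tested was below 0.01 and its log2 fold change, resting over proliferative, was above 1 or below -1. Of 3793 genes that passed the filter on low counts, 385 were called higher in the resting zone, which is 10.2%, and 230, or 6.06%, higher in the proliferative zone. Scaling by library size alone gave 418 and 194 calls, and upper-quartile scaling gave 327 and 305. Genes left out by the filter were read from the same model over all genes with a count. In it, 4.72% were called higher in the resting zone, 1.88% were called in the other direction and the median log2 fold change of all genes was 0.31. Adjusted p-values of the 2 fits are not comparable. For *Ptprc* they were 0.00260 in the filtered fit and 7.8e-10 over all genes (edgeR), at log2 fold changes of 4.78 and 4.81.

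Of the 9 genes, 6 were called with a higher resting zone level and 0 in the other direction, while 16.2% of the tested genes were called in either direction. *Ptprc*, *Laptm5*, *Rac2*, *Cd79b* and *Ighm* passed the filter and were called, and *Cd52* was called among all genes with a count, whereas *Coro1a*, *Cd79a* and *Vpreb3* were not called. The 5 genes passed the filter through their resting zone counts alone, and of all 226 genes that passed in this way 66.8% were called, so nothing is read from their count of calls. Together the 9 genes had 164, 181, 183 and 100 counts in the resting zone of mice 1, 2, 6 and 13, and 33, 6, 0 and 0 in the proliferative zone of the same animals. At the CPM of the resting zone, the proliferative libraries would have held 257, 335, 227 and 118 counts of these genes. The zones did not overlap in CPM, with the resting zone higher, for 6 of the 9 genes and for 8.38% of all genes with a count. For 1 of the 6, *Cd52*, the separation rests on 3 resting and 4 proliferative zone reads in mouse 1. The median log2 fold change of the 9 genes was 4.81 in the fit over all genes. *Coro1a* and *Cd79b* had at most 3 counts in every proliferative library, and with both at their lower bound and *Cd79a* left out the median of the remaining 8 was 4.28. In RNA from a dissected piece of tissue, fewer cells of a type and less RNA per cell cannot be told apart.

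**Figure D1:**
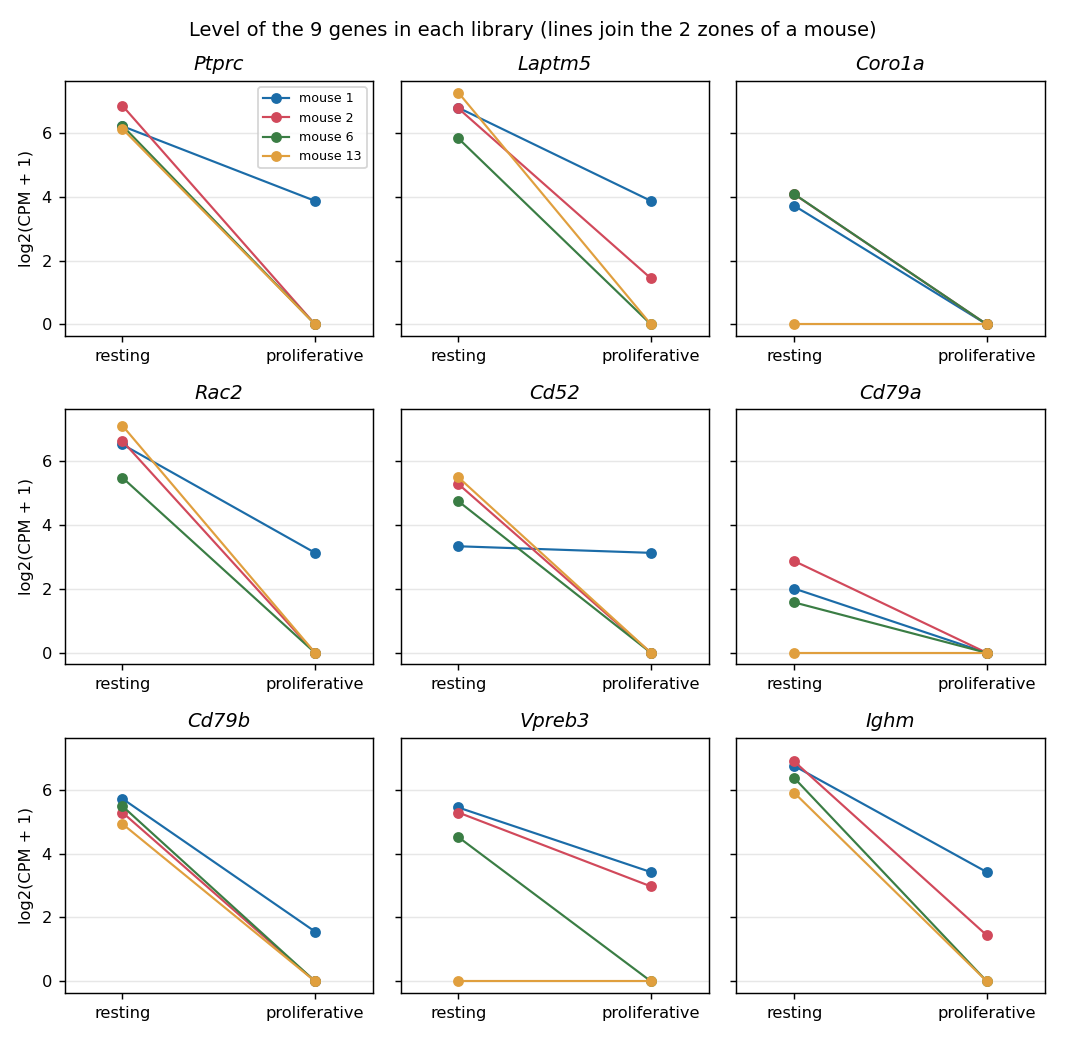
Level of each of the 9 genes in each library as log2(CPM + 1), with a line joining the resting and the proliferative zone library of a mouse. *Ptprc*, *Laptm5*, *Rac2*, *Cd79b* and *Ighm* lay higher in the resting zone of 4 of 4 mice, and mice 6 and 13 had 0 counts of all 9 genes in the proliferative zone.

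Promoter sequences are shown for those genes whose promoter held a letter run known as a binding motif of blood cell transcription factors. RefSeq promoters (GRCm38.p6) were given for 5 of the 9 genes, *Ptprc*, *Laptm5*, *Coro1a*, *Cd79a* and *Vpreb3*, in 7 windows of 250 bases before an annotated start. *Rac2*, *Cd52*, *Cd79b* and *Ighm* had no entry. The letters searched on both strands were AGGAAGT, which matches the ETS family that includes PU.1, ATTTGCAT, the octamer bound by OCT2, and the EBF1-type palindrome of TCCC and GGGA spaced by 2 bases, and they were picked with these sequences in view. They occurred in 7.69%, 1.60% and 0.779% of 32851 mouse promoter windows of the same length. The window of *Vpreb3*, chr10:75948050-75948299 on the plus strand, held both the first motif, 165 bases before the start in the reverse orientation, and the octamer, 45 bases before the start. Stretches of *Ptprc*, on the minus strand of chromosome 1 at 113 and 58 bases before 1 of its starts (chr1:138175402-138175428 and chr1:138175347-138175373), and of *Cd79a*, on the plus strand 55 bases before its start (chr7:24897432-24897458), are given as 27 bases centred on the first motif. Distances are to the RefSeq start, which follows the last base of the window, and in GENCODE all 3 genes begin further upstream. The window of *Vpreb3* thus lies within the span of the gene but overlaps no exon, and the windows of *Ptprc* and *Cd79a* overlap exons of these genes. Capitals mark the motifs, and all sequences run 5′ to 3′ on the strand of the gene.
Vpreb3, RefSeq promoter window: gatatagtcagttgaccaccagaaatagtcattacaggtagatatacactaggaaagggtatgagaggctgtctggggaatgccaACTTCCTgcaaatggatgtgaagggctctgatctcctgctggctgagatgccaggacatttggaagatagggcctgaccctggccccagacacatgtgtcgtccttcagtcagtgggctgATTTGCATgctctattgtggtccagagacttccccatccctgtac
Ptprc, 113 bases before a RefSeq start: acttgaattaAGGAAGTaagaagccat
Ptprc, 58 bases before a RefSeq start: tttttttttaACTTCCTgcaaagagga
Cd79a, 55 bases before the RefSeq start: acggctgaacAGGAAGTgaggcggagt
The single window of *Laptm5* and the pair of *Coro1a* held none of the 3 letter runs. A match is a description of the letters and no evidence that a factor bound there.

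Among the pan-leukocyte genes, *Ptprc* (ENSMUSG00000026395, chr1:138062861-138175708, minus strand, GRCm38) had 24, 36, 37 and 14 counts in the resting zone of mice 1, 2, 6 and 13. In the proliferative zone it had 7 counts in mouse 1 and 0 in mice 2, 6 and 13. The zones did not overlap, and the lowest resting zone library, at 68.7 CPM, stood above the highest proliferative one, at 13.6 CPM. The mean (± SD, n = 4) was 82.3 ± 21.3 CPM in the resting and 3.40 ± 6.80 CPM in the proliferative zone, with a log2 fold change of 4.78 ± 0.90 (SE, adjusted p = 0.00260, edgeR).

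*Laptm5* (ENSMUSG00000028581, chr4:130913125-130936141, plus strand) encodes a lysosomal membrane protein that lowers the surface level of antigen receptors. It had 36, 34, 28 and 31 counts in the resting and 7, 1, 0 and 0 in the proliferative zone, in the same order of animals. The counts of the resting zone were the most even among the 9 genes, whereas its CPM ranged from 55.7 in mouse 6, the deepest resting zone library, to 152 in mouse 13, the shallowest. The mean was 106 ± 39.5 CPM against 3.83 ± 6.56 CPM, a log2 fold change of 4.78 ± 0.73 (adjusted p = 0.000764, edgeR).

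*Rac2* (ENSMUSG00000033220, chr15:78559167-78572783, minus strand) is the Rac GTPase of blood cells and drives actin remodeling and the oxidative burst. It followed *Laptm5* closely, with 30, 31, 22 and 28 counts in the resting and 4, 0, 0 and 0 in the proliferative zone. The zones did not overlap. The mean was 92.6 ± 38.4 CPM against 1.94 ± 3.88 CPM, with a log2 fold change of 5.36 ± 0.80 (adjusted p = 0.000698, edgeR). With 0 counts in 3 of the 4 proliferative libraries this value rests on mouse 1, without which it was 8.06.

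*Cd52* (ENSMUSG00000000682, chr4:134082448-134095082, minus strand) encodes a short glycoprotein anchored in the lymphocyte membrane. It had 3, 12, 13 and 9 counts in the resting and 4, 0, 0 and 0 in the proliferative zone. In mouse 1 the zones stood at 9.11 and 7.77 CPM, within the counting error of 3 and 4 reads, and in the other 3 mice the proliferative zone had 0 counts. *Cd52* did not pass the filter. In the fit over all genes with a count its log2 fold change was 3.75 ± 0.96 (adjusted p = 0.00200, edgeR), and the call was lost without mouse 2, 6 or 13 (adjusted p = 0.0778, 0.0533 and 0.0347). Its exons share 172 bases with *Crybg2* on the other strand, which had 0 counts in 8 of 8 libraries.

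*Coro1a* (ENSMUSG00000030707, chr7:126699773-126707787, minus strand) encodes coronin 1A, an actin-binding protein needed for lymphocyte survival and migration. It had 4, 5, 8 and 0 counts in the resting zone, with 0 in every proliferative zone library. The 2 zones overlapped at 0 through mouse 13. Measured against 3 counts per proliferative library, its resting zone mean of 10.98 ± 7.53 CPM was at least 1.56-fold higher. It was not called (adjusted p = 0.0264), and without the replicate block it was (adjusted p = 0.00595). Its exons share 26 bases with *Bola2* on the other strand, which had 5, 5, 6 and 1 counts in the resting and 2, 3, 7 and 0 in the proliferative zone.

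Of the B lymphoid genes, *Ighm* (ENSMUSG00000076617, chr12:113418558-113422730, minus strand), the constant region of the IgM heavy chain, had the most counts. They were 35, 37, 41 and 12 in the resting and 5, 1, 0 and 0 in the proliferative zone of mice 1, 2, 6 and 13. Mouse 13 had the lowest resting zone level, 58.9 CPM, which was above the highest proliferative zone level, 9.71 CPM in mouse 1. The mean was 91.0 ± 26.1 CPM against 2.85 ± 4.64 CPM, with a log2 fold change of 5.02 ± 0.72 (adjusted p = 0.000595, edgeR).

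*Cd79b* (ENSMUSG00000040592, chr11:106311341-106314762, minus strand) had 17, 12, 22 and 6 counts in the resting zone, and a single count in the proliferative zone, in mouse 1. Levels in the resting zone ran from 29.4 to 51.6 CPM, and no library of the zones overlapped. Against 3 counts per proliferative library, the resting zone mean of 40.7 ± 9.36 CPM was at least 5.77-fold higher (adjusted p = 0.000757, edgeR). Its partner in the B cell receptor, *Cd79a* (ENSMUSG00000003379, chr7:24897381-24902197, plus strand), had 1, 2, 1 and 0 counts in the resting zone and none among the proliferative libraries. Both zones were at or under 3 counts per library, so that no fold is given, and the gene was not called (adjusted p = 0.649, edgeR). The counts of the 2 receptor chains thus stood at 57 against 4 over the resting zone libraries, although their exon lengths, 1431 and 1457 bases, were almost equal.

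*Vpreb3* (ENSMUSG00000000903, chr10:75943057-75949657, plus strand) encodes a protein of B cell precursors related to the surrogate light chain. It had 14, 12, 11 and 0 counts in the resting and 5, 4, 0 and 0 in the proliferative zone. It was the gene with the most proliferative zone counts relative to its resting zone counts, 9 against 37, and the zones overlapped because mouse 13 had no count in either. Its log2 fold change of 2.81 ± 0.91 did not pass (adjusted p = 0.0242, edgeR), also without the block (adjusted p = 0.0231).

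**Figure D2:**
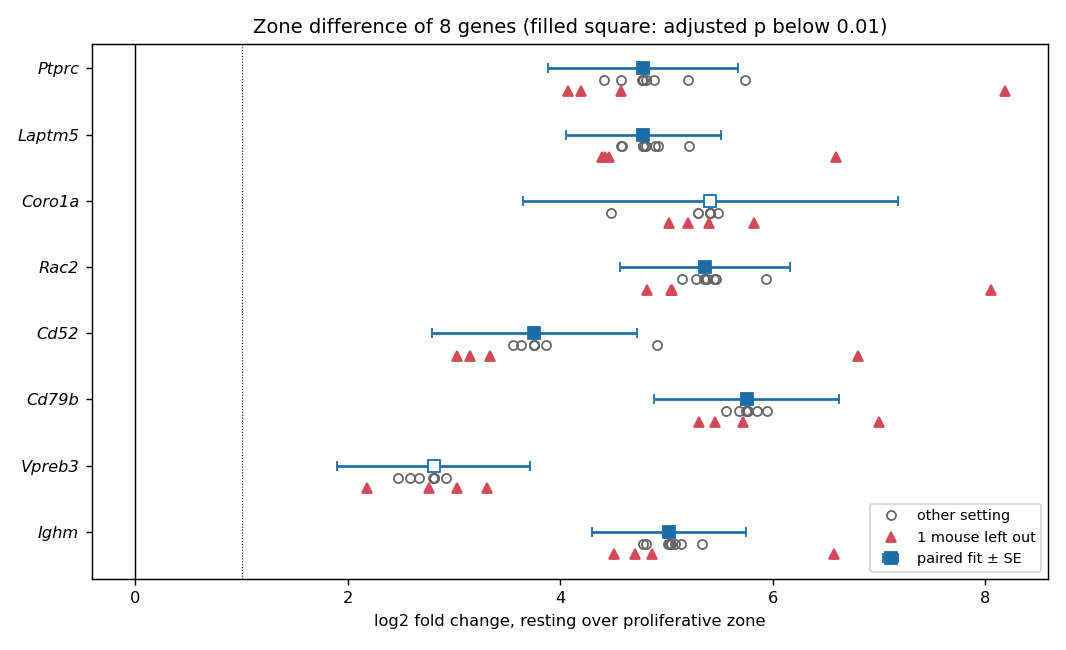
Log2 fold change, resting over proliferative zone, of 8 of the 9 genes in the paired fit with its SE (squares, filled where the adjusted p was below 0.01), under the other settings (circles) and with each mouse left out (triangles); the dotted line marks 1. All values were above 1, and the triangles farthest to the right, except for *Coro1a* at 5.82 without mouse 13, are those without mouse 1. *Coro1a* and *Cd79b* had at most 1 count per proliferative library, so that their fitted values depend on the prior count.

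Leaving out 1 animal changed the number of calls among the 9 genes by more than 1.5 times in 1 case. Without mouse 13, only *Cd79b* and *Ighm* of the 9 genes were called (adjusted p = 0.00904 and 0.00874), while *Ptprc*, *Laptm5* and *Rac2* had adjusted p = 0.0226, 0.0117 and 0.0117 with log2 fold changes of 4.57, 4.42 and 5.04. Calls of all genes fell from 385 to 151 in the resting zone direction in that fit, and in the other direction from 230 to 71, or to 117 without mouse 1. Without mouse 1 the 6 called genes were called again, and their log2 fold changes rose to between 6.57 (*Ighm*) and 8.18 (*Ptprc*), because the proliferative zones of the other 3 animals held at most 1 count of any of them. *Ptprc*, *Rac2*, *Cd52* and *Cd79b* had 0 counts there, and such fitted values depend on the prior count and are no bound.

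All 39 proliferative zone counts of the 9 genes lay in the male animals, 33 in mouse 1 and 6 in mouse 2. In mouse 1 they came from 7 genes, and in mouse 2 from *Vpreb3* with 4 counts and *Laptm5* and *Ighm* with 1 each. As a share of the library, the 9 genes took 0.0492% of the counts in the resting zone of mouse 1 (exact 95% interval 0.0420% to 0.0574%), 0.0600% in mouse 2, 0.0396% in mouse 6 and 0.0518% in mouse 13. In the proliferative zone this share was 0.00604% in mouse 1 (0.00416% to 0.00848%) and 0.000960% in mouse 2 (0.000352% to 0.00209%), and 0 counts in mice 6 and 13 allow up to 0.000475% and 0.00120% by the limit of 3 counts, which is lower than the upper end of an exact 95% interval, 0.000584% and 0.00148%. With 0 counts of the 9 genes in both female proliferative libraries, the fitted zone difference of the female animals depends on the prior count, and no size of a sex difference is given. With 2 animals of each sex and these low counts, the zone difference of 0 of the 9 genes differed between the sexes in edgeR's interaction test, also at an unadjusted p of 0.05. The lowest unadjusted p of the interaction was 0.0616, for *Laptm5* (adjusted p = 0.972, edgeR).

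Within the resting zone the B lymphoid genes made up 40.9% of the counts of the 9 genes in mouse 1 (exact 95% interval 33.3% to 48.8%), 34.8% in mouse 2 (27.9% to 42.2%), 41.0% in mouse 6 (33.8% to 48.5%) and 18% in mouse 13 (11% to 26.9%). Mouse 13 had a smaller share than the other animals beyond counting error, with 18 B lymphoid and 82 pan-leukocyte counts. Its summed pan-leukocyte level of 402 CPM was the highest of the resting zone libraries, and its B lymphoid level of 88.3 CPM the lowest. *Coro1a*, *Cd79a* and *Vpreb3* had no counts there, and this was the shallowest library.

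Per kilobase of exon, the mean resting zone level was highest for *Ighm*, at 48.3 ± 13.8 CPM per kb. *Rac2*, *Vpreb3*, *Cd79b*, *Laptm5* and *Cd52* followed at 29.9, 29.8, 28.5, 28.0 and 24.7 CPM per kb. *Ptprc*, *Coro1a* and *Cd79a* came last at 4.50, 3.94 and 1.95 CPM per kb. Neighbours in this order overlapped in their ranges, apart from *Cd52* (lowest library 7.68) and *Ptprc* (highest library 6.23). The exon length of *Ptprc*, 18313 bases, joins all annotated transcripts, and its level per length would be higher over a shorter transcript. Whether counts scale with exon length after 2 rounds of amplification was not tested, so the order is a description only.

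Close relatives of 4 of the genes that many cell types express were measured alongside. Among 10 such genes, 0 were called in either direction with edgeR, 3 had an unadjusted p below 0.05, all with the resting zone higher, and 1, *Ptprs*, was called with DESeq2. *Rac1*, the widely expressed Rac GTPase, had 69, 39, 55 and 50 counts in the resting and 57, 58, 96 and 20 in the proliferative zone, which gave a log2 fold change of 0.55 ± 0.37 (adjusted p = 0.313, edgeR). *Laptm4a*, a lysosomal relative of *Laptm5*, stood at 290 ± 84.0 CPM and 344 ± 21.0 CPM, and *Coro1c*, a widely expressed coronin, at 79.6 ± 49.2 and 31.2 ± 18.7 CPM. *Ptprs*, a receptor phosphatase, had the lowest p of the 10 with a log2 fold change of 1.83 ± 0.50 (adjusted p = 0.0183, edgeR). The summed CPM of the relatives in the proliferative zone was 68.9%, 105%, 84.1% and 66.4% of that in the resting zone of mice 1, 2, 6 and 13. For the 9 leukocyte genes it was 12.9%, 1.79%, 0% and 0%. The difference between the leukocyte genes and their relatives was not tested.

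**Figure D3:**
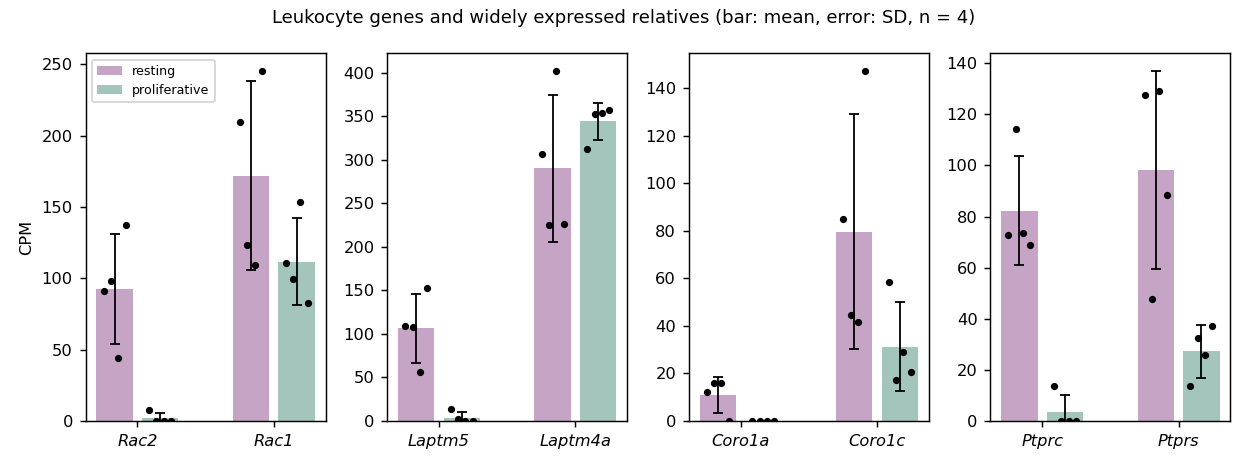
CPM of 4 leukocyte genes beside a widely expressed relative in the resting and the proliferative zone; points are the 4 libraries, bars the mean and error bars the SD. *Rac2* stood at 92.6 CPM in the resting and 1.94 CPM in the proliferative zone, whereas the ranges of *Rac1* and *Laptm4a* overlapped between the zones.

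Other genes used by most leukocytes behaved in part like the 5 above. Of 36 listed, 17 were called with the resting zone higher and 0 with it lower, 4 of the 6 that passed the filter and 13 of the other 29 with a count. The shares over all genes were 10.2% of those that passed the filter and 4.72% of those with a count. *Cd53* and *Ikzf1* passed the filter through their resting zone counts alone, and 66.8% of all such genes were called. *Evi2b* had 0 counts in every library. *Cd53*, a tetraspanin of blood cells, had 57, 52, 62 and 27 counts in the resting and 6, 3, 0 and 0 in the proliferative zone (log2 fold change 5.13 ± 0.64, adjusted p = 0.000318, edgeR). *Lcp1*, the plastin of blood cells, rose with a log2 fold change of 2.85 ± 0.38 and kept 5 to 18 counts in every proliferative library. *Arhgdib* and *Ikzf1*, which encodes the lymphoid transcription factor Ikaros, were called with log2 fold changes of 3.39 ± 0.54 and 4.60 ± 0.94. *Lsp1*, which encodes an actin-binding protein of leukocytes, went the other way with 12, 15, 50 and 7 against 58, 34, 73 and 20 counts, and did not pass (log2 fold change -0.80 ± 0.40, adjusted p = 0.168, edgeR). The count of 17 fell to 9 with DESeq2 and to 7, 8 and 8 without mouse 2, 6 or 13.

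Of 34 further B lymphoid genes listed, 32 had a row in the table and 6 were called higher in the resting zone, all of them among the 26 with a count that the filter left out. Over all genes with a count 4.72% were called in this direction. Among these were *Cd93*, *Pou2af1*, *Blnk*, *Syk* and *Igkc*, named here after their values were seen. *Cd93* is also known from endothelium and *Syk* from myeloid cells. *Pax5*, the transcription factor of B cell commitment, had 0 counts in 8 of 8 libraries, as did *Vpreb2*, *Rag2* and *Jchain*. *Cd72* and *Cd24a* passed the filter and were not called. *Cd72*, a B cell surface lectin, had 95, 70, 104 and 81 counts in the resting and 88, 76, 97 and 54 in the proliferative zone (log2 fold change 0.69 ± 0.26, adjusted p = 0.0692, edgeR), and its exons share 1423 bases with *Tesk1* on the other strand. *Cd24a*, a surface protein of many immature cells, had 74 to 322 and 95 to 433 counts (log2 fold change -0.04 ± 0.29). *Tesk1* had 83, 32, 107 and 64 counts in the resting and 19, 6, 7 and 5 in the proliferative zone, without overlap between the zones, whereas the counts of *Cd72* overlapped. Over *Pax5*, the opposite-strand gene *5730488B01Rik* had 25, 7, 0 and 0 against 13, 3, 0 and 0 counts. Without the strand setting, reads of *Cd72* and *Tesk1*, and of *Pax5* and its partner, cannot be told apart. The same holds for *Rac1*, *Coro1c*, *Arhgdib*, *Rag2*, *Mpo*, *Alas2*, *Csf1r*, *Acp5* and *Egfl7*, whose exons also overlap exons of a gene on the other strand. The count of 6 was 2 with DESeq2, 8 without the replicate block, and 2, 3 and 3 without mouse 2, 6 or 13.

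Markers of the other blood and bone cells a dissected piece could hold moved with the 9 genes to different degrees, and their part in the result was not tested. Their calls stand beside 10.2% of the genes that passed the filter and 4.72% of all genes with a count, called higher in the resting zone. Genes of T and NK cells were nearly absent. Of 18, 0 were called in either direction with edgeR or DESeq2 and 0 had an unadjusted p below 0.05, with 13 having any count. Their summed level was 13.9 to 63.8 CPM in the resting and 3.20 to 17.1 CPM in the proliferative zone, and *Cd3e*, *Cd8a*, *Cd5*, *Trac* and *Gzmb* were at 0 in 8 of 8 libraries. Of 11 genes of neutrophils, 8 were called higher in the resting zone, with summed levels of 3234 to 4276 CPM against 0 to 586 CPM. *Lcn2*, *Mpo* and *Ltf*, which encode granule proteins, had 30 to 91, 11 to 112 and 63 to 124 counts in the resting zone, and *Mpo* had 0 counts in every proliferative library. Of 8 genes of erythroid cells, 7 were called higher in the resting zone, with 1821 to 12042 CPM against 0 to 1716 CPM. *Alas2*, *Hba-a2* and *Hba-a1*, which serve heme and globin synthesis, had 0 counts in the proliferative zone of mice 6 and 13. *Hba-a1* and *Hba-a2* are nearly identical copies, so the division of reads between them is uncertain.

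Animal by animal, the proliferative zone held 16.8%, 3.20%, 0% and 0% of the resting zone's summed neutrophil CPM and 14.3%, 3.07%, 0% and 0% of its erythroid CPM. The 9 genes gave 12.9%, 1.79%, 0% and 0%, so that mouse 1 was the highest and mice 6 and 13 were at 0 in all 3 groups of genes. The other pan-leukocyte genes gave 27.3%, 10.6%, 20.5% and 18.04% in mice 1, 2, 6 and 13. Of their proliferative zone counts, *Lsp1* and *Fermt3* held 81, 54, 99 and 30, and the remaining 34 genes held 99, 31, 12 and 8, which is 16.1%, 4.20%, 2.63% and 4.15% of their resting zone CPM. The other B lymphoid genes gave 49.7%, 49.6%, 99.0% and 67.7%. There *Cd72* and *Cd24a* held 330, 474, 530 and 149 of the proliferative zone counts, and the remaining 30 genes 22, 19, 11 and 4, or 8.22%, 7.08%, 5.75% and 9.39% of their resting zone CPM. These genes were set apart after their values were seen. Of 12 genes of macrophages, 6 were called higher in the resting zone, with *Cd68*, *Lyz2* and *Tyrobp* at log2 fold changes of 4.65, 4.60 and 3.71, and *Cd14* was at 0 everywhere. *Csf1r*, the receptor that macrophages depend on, was not called (log2 fold change 0.31 ± 0.26, adjusted p = 0.411, edgeR), and *Adgre1*, which encodes F4/80, had a single count. The summed macrophage level was 1039 to 1230 CPM in the resting and 199 to 514 CPM in the proliferative zone, where *Csf1r* held 183, 107, 191 and 91 counts and the other 11 genes 82, 9, 3 and 2. Of 8 genes of osteoclasts, 7 were called higher in the resting zone, with *Mmp9*, *Ctsk* and *Acp5* at log2 fold changes of 5.58, 4.56 and 5.22. Their summed level was 1496 to 4549 CPM against 14.4 to 445 CPM.

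Of 8 endothelial genes, 4 were called with the resting zone higher, with 219 to 386 CPM against 83.3 to 112 CPM. *Pecam1*, which encodes CD31, had 15, 19, 14 and 3 counts in the resting and 0 in the proliferative zone, while *Egfl7*, a secreted endothelial protein, was not called (log2 fold change 0.33 ± 0.32). It held 47, 64, 50 and 24 counts in the proliferative zone, and the other 7 endothelial genes 7, 1, 2 and 3. Of 8 genes of osteoblasts and osteocytes, 4 were called higher in the resting zone, with 6179 to 26826 CPM against 183 to 2433 CPM. *Col1a1*, the main collagen of bone, had 2580 to 8515 counts in the resting and 95 to 1148 in the proliferative zone. *Bglap*, which encodes osteocalcin and has the near copy *Bglap2*, had 6 to 32 and 0 to 1 counts. *Sp7*, which encodes the osteoblast transcription factor osterix, went the other way with 3, 3, 11 and 4 against 23, 17, 19 and 12 counts, and did not pass (log2 fold change -1.34 ± 0.54, adjusted p = 0.0916, edgeR). Of the 10 chondrocyte genes, 8 were called higher in the proliferative zone, among them *Col11a1*, *Hapln1* and *Sox9* with log2 fold changes of -2.63, -3.38 and -2.76. Their summed level was 7217 to 18833 CPM in the resting and 33968 to 58260 CPM in the proliferative zone.

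**Figure D4:**
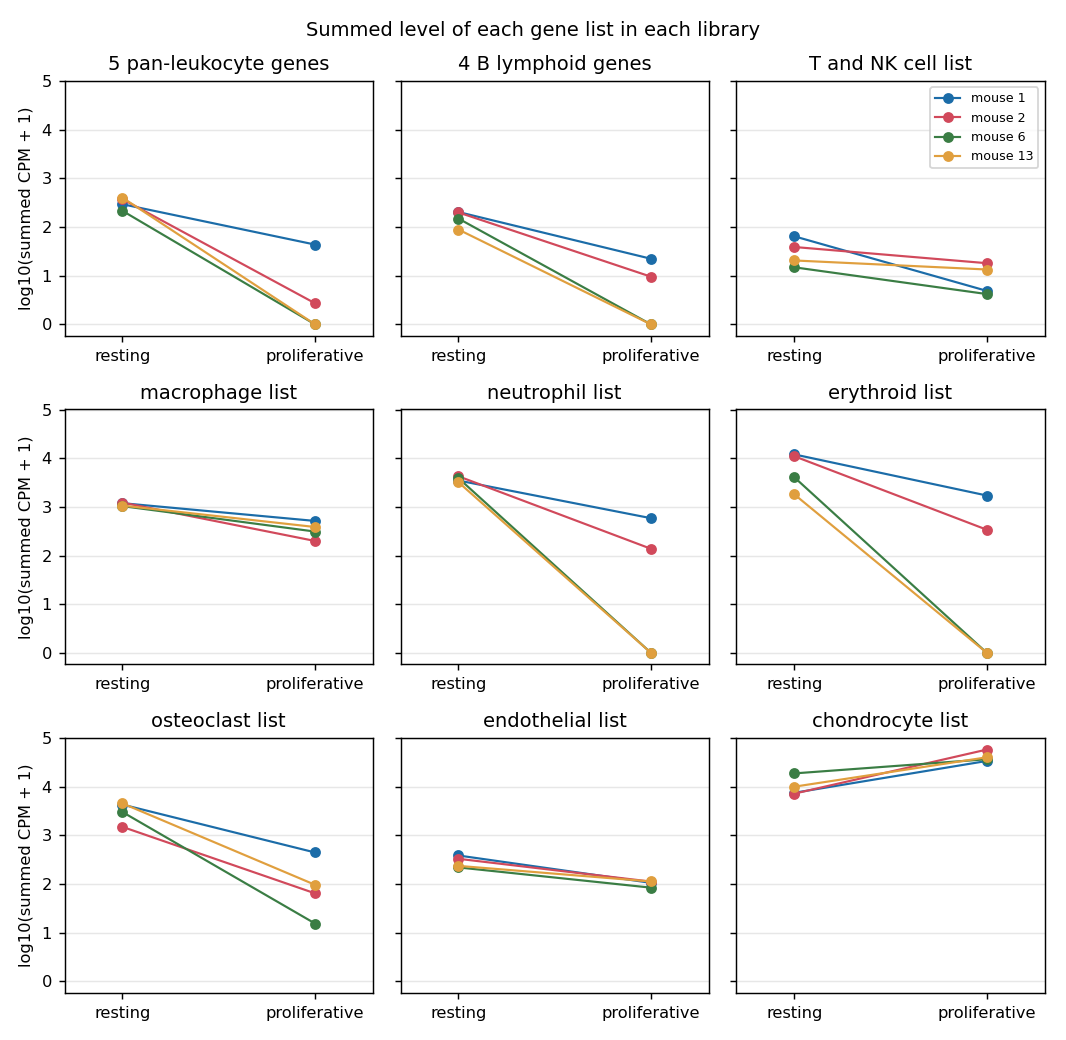
Summed level of the 5 pan-leukocyte and 4 B lymphoid genes and of the lists of other cell types in each library as log10(summed CPM + 1), with a line joining the zones of a mouse. The 9 genes and the neutrophil and erythroid lists were at 0 in the proliferative zone of mice 6 and 13, and the chondrocyte list lay higher in the proliferative zone of 4 of 4 mice.

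Among the 3793 tested genes, those whose log2(CPM + 1) over the 8 libraries was most like the summed level of the 9 genes were *Chil3*, *Gm15856*, *Hmox1*, *G530012D18Rik* and *Ngp*, with Pearson correlations of 0.996, 0.995, 0.995, 0.992 and 0.992. *Chil3* had 39, 73, 69 and 26 counts in the resting and 11, 4, 0 and 0 in the proliferative zone. *Ngp* had 304, 367, 493 and 231 counts against 62, 25, 0 and 0. These values describe 8 libraries that share the 2 zones and the 4 animals, so that any gene with the same zone difference scores high.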

How the data were processed

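Libraries of laser-microdissected growth plate zones were sequenced from 4 mice. Reads were trimmed with BBDuk by the authors, who aligned them to GRCm38 with HISAT2 2.1.0, counted them per Ensembl gene with HTSeq-count 0.11.2 and deposited the counts without normalization. The strand setting is not given in the sources used here, and *Tsix* had 18698 counts against 1368 of its opposite-strand partner *Xist*. The other deposited table is a comparison of the zones by the authors (fold changes and p-values), of which only the gene symbols were used, for 7 of the 9 genes. The symbols of *Coro1a* and *Cd79a* came from the reference (GENCODE M21, GRCm38), as did coordinates, exon lengths and overlaps.

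Counts were analysed with edgeR 4.0.16 in R 4.3.3 by TMM scaling, a filter by zone (minimum count of 10, minimum total of 15) and the quasi-likelihood test. The same TMM factors served the paired fit, the fit over all genes and the CPM values. Alternatives with DESeq2, other scaling, a filter of 10 counts in 4 libraries or a mouse left out did not use them. The SE of a log2 fold change was taken from its F statistic. DESeq2 1.42.0, edgeR's likelihood ratio test, other scaling factors and filters, an adjusted p threshold of 0.05, the model without the block and each mouse left out were the alternatives. The fits were tested on simulated counts. The labels give the 2 libraries of a number to 1 animal, so the numbers pair them. After removal of the zone means, the libraries of mice 1, 2, 6 and 13 correlated across genes at 0.165, 0.0136, 0.137 and 0.0577. Pairs of libraries of 1 zone all differed by more than sampling noise.

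The 9 genes, the lists and the rules were chosen with earlier results of these data known. Besides the 9 genes, the text names up to 5 genes of the pan-leukocyte and B lymphoid lists and up to 3 of each other list with the lowest p in the fit of filtered genes, defining markers, and the 5 genes most like the 9. In the B lymphoid list only *Cd72* and *Cd24a* passed the filter. There, 5 genes called in the fit over all genes are named as well. A gene of the B lymphoid list that was counted is not reported here by name.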

Additional observations from a re-analysis of the deposited data

Results flagged for a closer look

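Each zone had 4 libraries, and a library was singled out where its gap to the nearest other library was above Dixon's 95% critical share of the whole range of the zone. Of 16 groups tested over the 9 genes, 6 met this, and chance gives about 1 in 20. Of these, 5 were the proliferative zone library of mouse 1, with 13.6 CPM for *Ptprc* (7 counts), 13.6 CPM for *Laptm5* (7 counts), 7.77 CPM for *Rac2* (4 counts), 7.77 CPM for *Cd52* (4 counts) and 1.94 CPM for *Cd79b* (1 count). Where the other 3 libraries of a zone are at 0, any single count meets this limit. The remaining one was the resting zone library of mouse 2, with 114 CPM for *Ptprc* (36 counts) against 68.7 to 73.6 CPM in the other resting zone libraries.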

How the results depend on the processing

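None of the results on the 9 genes changed direction. Of 76 values of single genes under the other settings, 2 had no adjusted p (*Coro1a* and *Cd79a* with DESeq2) and 74 could be compared with the threshold, of which 69 stayed on their side of the threshold, 4 passed it only there and 1 was lost. *Coro1a* was called without the replicate block, with the likelihood ratio test and at an adjusted p of 0.05, *Vpreb3* at an adjusted p of 0.05, and *Cd52* was lost with DESeq2 (adjusted p = 0.0138). The number of the 9 genes called was 7 without the block, and it ranged from 2 to 6 with a mouse left out. It was 4 with a filter of 10 counts in 4 libraries, which tested 3927 genes against 3793. Genes that this filter left out were not read from the fit over all genes, so *Cd52* and *Cd79b* were untested there. With a mouse left out, 30 of 36 values of single genes stayed on their side and 6 were lost, 4 of them without mouse 13.

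Calls higher in the resting zone numbered 826 without a filter, 584 at an adjusted p of 0.05 and 151 to 349 with a mouse left out, and without the replicate block 419. Calls higher in the proliferative zone numbered 396 with the likelihood ratio test, 414 at an adjusted p of 0.05 and 71 to 226 with a mouse left out. Of the other pan-leukocyte genes, 9 were called with DESeq2, 4 with the filter of 10 counts in 4 libraries and 7 to 15 with a mouse left out. Of the other B lymphoid genes, 2 were called with DESeq2, 0 with that filter and 2 to 4 with a mouse left out. The 13 pan-leukocyte and 6 B lymphoid genes called only in the fit over all genes were not tested with that filter. The 4 and the 0 thus say nothing about them. The low counts of *Coro1a*, *Cd79a* and *Vpreb3* limit what can be said of them. The cause was not tested for the remaining changes.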
